A study of Homo sapiens with 20 samples.

Results

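The 6 genes described here are feedback regulators of the tumour suppressor p53: MDM2, MDM4, PPM1D, CCNG1, RCHY1 and TP53INP1. They were taken by gene symbol from 58288 genes counted in each library, and all 6 passed the filter on low counts, which 16478 genes passed. Polyadenylated RNA had been sequenced from DOHH2 and U2932, human cell lines of diffuse large B-cell lymphoma, after 8 h or 18 h with a compound labelled TK or with DMSO, the solvent used as control. The labels do not say what TK is or at which dose it was given. In DOHH2 there were 3 TK and 3 DMSO libraries at 8 h, and 3 TK and 2 DMSO libraries (replicates 1 and 3) at 18 h. In U2932 there were 2 TK (replicates 1 and 2) and 3 DMSO libraries at 8 h, and 3 TK libraries and 1 DMSO library (replicate 2) at 18 h. The labels name no genetic change in either line. Nor do they give the replicates as separate cultures: the p-values therefore rest on a spread between libraries that could be technical alone.

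The p53 protein is a transcription factor that is held at a low level in unstressed cells and accumulates after DNA damage and other stress. MDM2, the ubiquitin ligase that marks p53 for degradation, is itself switched on by p53, which closes a negative feedback loop. The other genes add further loops: MDM4 masks the activation domain of p53, PPM1D removes activating phosphates from p53 and its kinases, CCNG1 recruits a phosphatase to MDM2, RCHY1 is another ubiquitin ligase of p53, and TP53INP1 promotes p53 phosphorylation and autophagy.

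Counts in genes came to between 30363255 and 52275430 per library, with a median of 34671988. Levels are CPM, counts relative to the library total, scaled by edgeR's TMM factors, as mean ± SD, and a gene was called changed at an adjusted p under 0.05 in edgeR's quasi-likelihood test over all 16478 genes. The lowest count of any of the 6 genes in any library was 238. In replicate 1 of DOHH2 with TK at 18 h, the share of all counts without a unique alignment was 56.6%, where the 19 remaining libraries had 20.7 to 34.3%. B-cell markers were present in both lines: the sum over 7 of them was 2720 to 5540 CPM in DOHH2 libraries and 3700 to 4960 CPM in U2932 libraries. The sum over 3 T-cell markers was at most 0.525 CPM and that over 3 myeloid markers at most 1.84 CPM in any library. Among 3 epithelial and fibroblast markers, COL1A1 had 4.96 to 29.2 CPM in DOHH2 libraries and 0.273 to 1.73 CPM in U2932 libraries, EPCAM had 0 to 0.427 CPM in DOHH2 libraries and 21 to 32.2 CPM in U2932 libraries, and KRT8 was at most 1.06 CPM in any library. Their part in the results was not tested. Most markers of the B-cell stage ran against the usual description of DOHH2 as a germinal-centre type line and U2932 as an activated type. BCL6, a germinal-centre factor, was at 0 to 0.358 CPM in DOHH2 libraries and at 330 to 409 CPM in U2932 libraries, and SDC1, a plasma-cell marker, had 440 to 763 CPM in the DOHH2 libraries and 1.52 to 3.98 CPM in those of U2932. LMO2 and MYBL1 differed between the lines as BCL6 did, and IRF4 and PRDM1 as SDC1 did. The lines overlapped in MME (18.4 to 53.8 CPM in DOHH2, 31.2 to 53.9 CPM in U2932) and XBP1 (193 to 273 CPM in DOHH2, 158 to 220 CPM in U2932). The line names are used below as the labels give them.

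MDM2 lies on chromosome 12 (68808176 to 68850686, plus strand, GENCODE v29 on GRCh38). RefSeq gives it an upstream start at 68808172, next to where the GENCODE gene begins, and internal starts downstream of the first exon. The sequence before each kind of start is shown because p53 response elements are known to sit before the internal start of this gene. Capitals mark elements found by a search for the 20-base p53 response element (a pair of adjacent 10-base sites, searched on both strands at once because it is its own reverse complement) with at most 3 mismatches. Both sequences are on the plus strand of GRCh38.p14, from RefSeq, 250 bases each.
MDM2 before the upstream start, chr12:68807922-68808171: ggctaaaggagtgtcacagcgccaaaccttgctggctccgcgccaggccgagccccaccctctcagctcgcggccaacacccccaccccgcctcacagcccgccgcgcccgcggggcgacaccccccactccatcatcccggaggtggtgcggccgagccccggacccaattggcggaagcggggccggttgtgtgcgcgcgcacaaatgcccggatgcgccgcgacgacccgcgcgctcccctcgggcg
MDM2 before the internal start, chr12:68808767-68809016: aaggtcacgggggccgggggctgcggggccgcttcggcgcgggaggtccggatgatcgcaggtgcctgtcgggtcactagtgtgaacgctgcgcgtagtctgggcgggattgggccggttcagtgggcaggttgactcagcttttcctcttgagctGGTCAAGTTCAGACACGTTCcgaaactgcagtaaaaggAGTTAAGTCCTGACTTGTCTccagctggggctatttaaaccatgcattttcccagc
The first element in the internal sequence spans 68808923 to 68808942 and has 2 mismatches, and the second spans 68808961 to 68808980 and has 3 mismatches. They are 18 bases apart, begin 747 bases after the start of the gene and end 37 bases before the internal RefSeq start. In 7 of the 34 GENCODE transcripts both elements lie in intron 1, 27 transcripts start after them, and none has them in an exon. The limit of 3 mismatches was set with the known MDM2 sites in view, so the match is a description. Of 35116 RefSeq promoter windows of 300 bases (250 before to 50 after a start), 1826 or 5.2% held a match and 71 or 0.202% held 2 separate ones. Among 12 windows of MDM2, MDM4, PPM1D, CCNG1 and RCHY1 the matches were in the 2 overlapping windows at the internal MDM2 start. Of the 26 p53 target genes listed below, 22 had a window, and 8 of these 22 had one with a match, as did 1745 of 27305 genes in all (6.39%). That list is of genes already taken as p53 targets, so its share is a description too and carries no test. No window was matched to TP53INP1. The deposited counts are per gene and do not separate transcripts from the MDM2 starts.

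With TK for 18 h, MDM2 rose in DOHH2. Its level was 383, 449 and 482 CPM in the 3 TK libraries, against 206 and 183 CPM in the 2 DMSO libraries. Every TK library stood above every DMSO library, a pattern found in 11.9% of all genes. The means were 438 ± 50.7 CPM with TK (n = 3) and 194 ± 16.6 CPM with DMSO (n = 2). The fitted log2 change was 1.17 ± 0.15 (SE; 95% interval 0.87 to 1.48), or 2.25-fold, with an adjusted p of 0.000641. MDM2 was the gene with the second smallest p among all genes tested. It was the 1 of the 6 genes that was called, where 12 of 16478 genes (0.0728%) were called in either direction and 11 (0.0668%) were higher. Leaving out the TK library with few unique alignments gave a log2 change of 1.26 (adjusted p 0.000221), while leaving out DMSO replicate 3, with 1 DMSO library left, gave 1.09 with an adjusted p of 0.0956, which ends the call. The libraries are bulk RNA, so a change in a part of the cells and a smaller one in all of them cannot be told apart, nor can fewer cells of a kind and less RNA per cell.

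**Figure D1:**
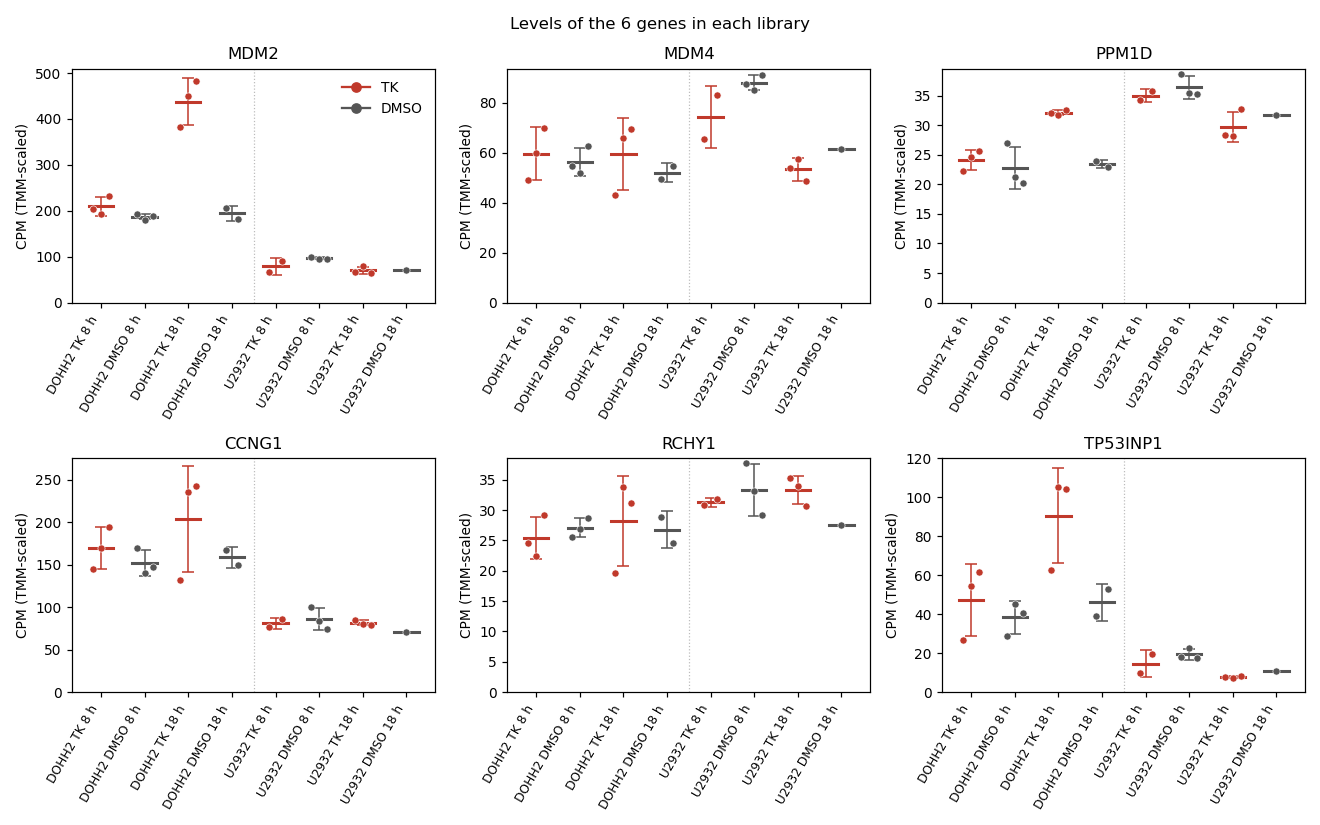
TMM-scaled CPM (linear axis from 0) of each of the 6 genes in 8 groups of line, compound and time. Points are libraries, thick bars the group mean and thin bars the SD where a group has more than 1 library. MDM2 in DOHH2 with TK at 18 h lies at 383 to 482 CPM, above the 17 other libraries, which reach 233 CPM.

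The MDM2 change in DOHH2 was small at 8 h. MDM2 had 204, 193 and 233 CPM with TK, against 192, 181 and 189 CPM with DMSO. The TK libraries stood above the DMSO libraries by a narrow margin (2.71% of genes did so), and the log2 change of 0.17 ± 0.13 was not called (adjusted p 1). No gene was called in that comparison by edgeR (0%) or DESeq2, and 497 genes (3.02%) had an unadjusted p under 0.05.

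Between the times, MDM2 was higher at 18 h than at 8 h in DOHH2 with TK, at 438 ± 50.7 CPM against 210 ± 20.6 CPM (n = 3 each). This log2 change of 1.06 ± 0.13 was called (adjusted p 0.000212), as were 258 genes (1.57%). In DOHH2 with DMSO the means were 194 ± 16.6 CPM at 18 h (n = 2) and 187 ± 5.32 CPM at 8 h (n = 3), and the log2 change was 0.054 (adjusted p 0.941), where 104 genes (0.631%) were called. The TK change at 18 h exceeded that at 8 h by 1.01 ± 0.19 on the log2 scale (95% interval 0.61 to 1.4). That difference ranked 3 of 16478 genes by p and was not called (adjusted p 0.205). The call was made for 2 genes (0.0121%).

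In U2932, MDM2 stayed at a lower level and was not called at either time. At 8 h it had 66 and 91.4 CPM with TK, against 99, 94.7 and 96.1 CPM with DMSO. Both TK libraries were below the DMSO libraries, as in 7.24% of genes, and the log2 change was -0.3 ± 0.14 (95% interval -0.59 to 0.0027; adjusted p 1). No gene was called there by edgeR (0%) or DESeq2, and 276 genes (1.67%) had an unadjusted p under 0.05. At 18 h it had 66.2, 78.9 and 65.5 CPM with TK, against 71.9 CPM in the single DMSO library. The TK libraries lay on both sides of it, and the log2 change was -0.034 ± 0.18 (95% interval -0.41 to 0.34). All values for this pair rest on 1 DMSO library, assumed to vary like the other groups, and 3 genes (0.0182%) were called.

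The line difference of the MDM2 change was tested directly. At 18 h the TK change in DOHH2 exceeded that in U2932 by 1.21 ± 0.22 on the log2 scale (95% interval 0.74 to 1.68), which ranked 6 of 16478 genes by p and was not called (adjusted p 0.0777). The call was made for 4 genes (0.0243%). Without DOHH2 TK replicate 1 of 18 h the MDM2 difference was 1.3 with an adjusted p of 0.0216. Over 15 alternatives it was 1.12 to 1.33, with an adjusted p of up to 0.628, and it was called in 5. The lines also differed in the control: at 8 h in DMSO, MDM2 averaged 187 ± 5.32 CPM in DOHH2 and 96.6 ± 2.2 CPM in U2932 (n = 3 each), a log2 difference of 0.95 ± 0.13 (adjusted p 1.33e-06).

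MDM2 shares its locus with a gene on the opposite strand, that of carboxypeptidase M, and whether counting used strand is not given in the sources used here. That neighbour had 17 to 41 counts in the DOHH2 TK libraries at 18 h and 6 to 12 counts in the DMSO libraries, and MDM2 had at least 13215 counts in each of those TK libraries.

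MDM4, the relative of MDM2 that binds p53 without marking it for degradation on its own, was not called with TK in either line. In DOHH2 at 18 h it had 43.1, 65.8 and 69.5 CPM with TK, against 49.4 and 54.7 CPM with DMSO. The groups overlapped, since the lowest and the highest library were both TK libraries, and the log2 change was 0.19 ± 0.18 (95% interval -0.19 to 0.57; adjusted p 0.86). At 8 h in DOHH2 the means were 59.7 ± 10.5 CPM with TK and 56.4 ± 5.56 CPM with DMSO (n = 3 each; log2 change 0.081). In U2932 at 8 h MDM4 had 65.4 and 83.2 CPM with TK, against 87.4, 85.3 and 91.3 CPM with DMSO. The TK libraries were the lower ones, as in 7.24% of genes, with a log2 change of -0.24 ± 0.18 (adjusted p 1). At 18 h it had 53.8, 57.7 and 48.7 CPM with TK, against 61.6 CPM in the DMSO library, a log2 change of -0.21 ± 0.22 (adjusted p 0.901).

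MDM4 and TP53INP1 had their lowest U2932 levels in the TK libraries of 18 h. For both genes those 3 libraries were below the other 6 U2932 libraries, which held for 10.2% of all genes. Against TK at 8 h, MDM4 was lower at 18 h by a log2 change of -0.48 ± 0.18 (adjusted p 0.163), which was not called, where 36 genes (0.218%) were. In DMSO, MDM4 had 61.6 CPM in the 1 library of 18 h and 88 ± 3.08 CPM at 8 h (n = 3), so time and compound cannot be told apart on this scale with 1 DMSO library at 18 h.

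MDM2 and MDM4 act as a pair on p53, and their ratio was taken within each library. MDM2 counts were 8.88, 6.83 and 6.95 times the MDM4 counts in DOHH2 with TK at 18 h, against 4.17 and 3.33 times with DMSO. All 3 TK libraries exceeded all other DOHH2 libraries in this ratio. In U2932 the ratios were smaller: 1.23, 1.37 and 1.34 with TK at 18 h, against 1.17 in the single DMSO library of that time. These 3 TK libraries also exceeded the other 6 U2932 libraries, which had 1.01 to 1.17. Of the 4 U2932 groups, the one with TK at 18 h had the lowest mean of MDM2 (70.2 CPM) and of MDM4 (53.4 CPM). At 18 h the TK log2 change of MDM2 was 1.17 in DOHH2 and -0.034 in U2932. That of MDM4 was 0.19 in DOHH2 and -0.21 in U2932. The ratio is of counts, not of molecules, since the exons of MDM2 cover 13284 bases and those of MDM4 11008 bases. No test was run on it, and how often ratios of other genes separate the libraries in this way was not computed.

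**Figure D2:**
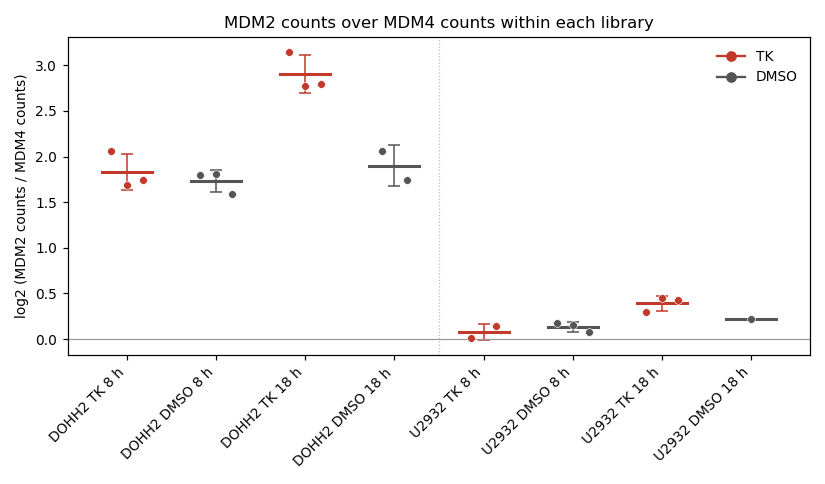
Log2 ratio of MDM2 counts to MDM4 counts in each library, by line, compound and time. Points are libraries, thick bars the mean and thin bars the SD where a group has more than 1 library, and the grey line at 0 marks equal counts. The DOHH2 TK libraries of 18 h average 2.91 against 1.9 for the DMSO libraries of that time.

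RCHY1, which like MDM2 attaches ubiquitin to p53, showed the smallest log2 change of the 6 genes in DOHH2 at 18 h. It had 19.7, 33.8 and 31.1 CPM with TK, against 28.9 and 24.6 CPM with DMSO. The TK libraries lay on both sides of the DMSO libraries, with the TK library of few unique alignments lowest. The log2 change was 0.077 ± 0.18 (95% interval -0.3 to 0.46; adjusted p 0.972), and its sign depended on single libraries. At 8 h in DOHH2 it was -0.093 ± 0.16, with overlapping groups. In U2932 RCHY1 averaged 31.3 ± 0.685 CPM with TK (n = 2) and 33.3 ± 4.29 CPM with DMSO (n = 3) at 8 h (log2 change -0.089). At 18 h it had 35.3, 33.9 and 30.7 CPM with TK, against 27.5 CPM in the DMSO library, and the log2 change of 0.28 ± 0.23 was not called (adjusted p 0.841). The RCHY1 locus overlaps THAP6 on the opposite strand.

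PPM1D encodes WIP1, the phosphatase that switches the p53 response off. In DOHH2 at 18 h it had 32.1, 31.7 and 32.5 CPM with TK, against 23.9 and 23 CPM with DMSO. Every TK library was above every DMSO library, as in 11.9% of all genes. Both groups were tight, at 32.1 ± 0.374 CPM with TK (n = 3) and 23.4 ± 0.661 CPM with DMSO (n = 2). The log2 change was 0.45 ± 0.13 (95% interval 0.18 to 0.73), or 1.37-fold. It was not called after adjustment over all genes (adjusted p 0.284). Against TK at 8 h (24.1 ± 1.7 CPM, n = 3) the log2 change was 0.41 ± 0.12 (adjusted p 0.0802), again with no overlap, which held for 8.54% of genes.

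In U2932 PPM1D was at 34.2 and 35.8 CPM with TK, against 38.6, 35.4 and 35.2 CPM with DMSO at 8 h, and at 28.3, 28.2 and 32.7 CPM with TK, against 31.7 CPM with DMSO at 18 h. The groups overlapped at both times, with log2 changes of -0.055 ± 0.13 and -0.092 ± 0.17. The difference between the lines in the TK change at 18 h was 0.55 ± 0.21 on the log2 scale (adjusted p 0.739), and the difference between the times in DOHH2 was 0.37 (adjusted p 1). With TK at 18 h, PPM1D in DOHH2 (31.7 to 32.5 CPM) lay within the range of the U2932 libraries (28.2 to 38.6 CPM).

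**Figure D3:**
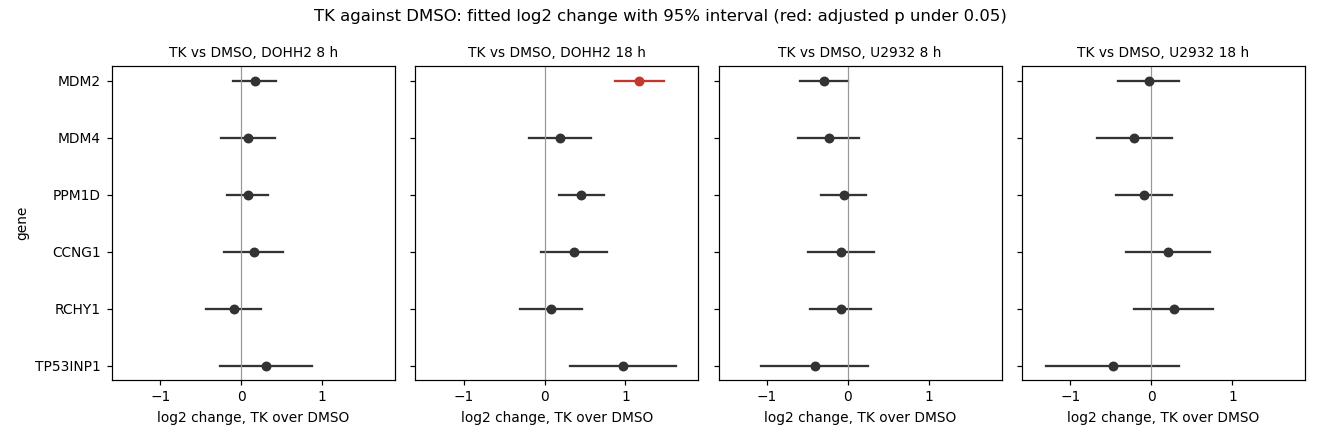
Fitted log2 change, TK over DMSO, of the 6 genes in each line at each time, with 95% intervals from edgeR's quasi-likelihood fit. MDM2 in DOHH2 at 18 h (red, 1.17) is the value with an adjusted p under 0.05, and the intervals of PPM1D (0.18 to 0.73) and TP53INP1 (0.32 to 1.63) there also lie above 0.

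CCNG1 encodes cyclin G1, which brings the phosphatase PP2A to MDM2. In DOHH2 at 18 h it had 132, 236 and 243 CPM with TK, against 167 and 150 CPM with DMSO. Replicates 2 and 3 were above the DMSO libraries and replicate 1, the library of few unique alignments, was below them. With all libraries the log2 change was 0.36 ± 0.2 (95% interval -0.048 to 0.77; adjusted p 0.637), and without that library it was 0.6 (adjusted p 0.11). At 8 h CCNG1 averaged 169 ± 24.4 CPM with TK and 152 ± 14.9 CPM with DMSO (n = 3 each), and the log2 change was 0.16 ± 0.17. In U2932 the log2 changes were -0.087 ± 0.2 at 8 h and 0.2 ± 0.25 at 18 h. Per kilobase of exon, CCNG1 had the highest level of the 6 genes in each group, with group means of 22.8 to 65.9 CPM per kb, and MDM2 came next in DOHH2 at 14.1 to 33 CPM per kb.

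TP53INP1, a stress-induced nuclear protein that cooperates with p53 kinases, had 62.4, 105 and 104 CPM with TK in DOHH2 at 18 h, against 39.2 and 52.8 CPM with DMSO. Every TK library was above every DMSO library, as in 11.9% of all genes, and replicate 1 was again the lowest TK library. The means were 90.4 ± 24.3 CPM with TK (n = 3) and 46 ± 9.62 CPM with DMSO (n = 2). The fitted log2 change was 0.97 ± 0.31 (95% interval 0.32 to 1.63), or 1.96-fold. The size was near that of MDM2 while the SE was larger, and the gene was not called (adjusted p 0.339). Without replicate 1 of TK at 18 h the log2 change was 1.18 (adjusted p 0.165), and without replicate 1 of TK at both times it was 1.18 with an adjusted p of 0.0474. The 8 h library had 3.29% of its gene counts in mitochondrial genes, against 5.06 to 8.08% in the 19 remaining libraries. It also had the lowest TP53INP1 level in DOHH2 (26.5 CPM). It is in neither 18 h group and enters their test through the spread shared by all groups.

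At 8 h TP53INP1 spread widely in DOHH2, with 26.5, 54.2 and 61.6 CPM with TK, against 29, 45.3 and 40.7 CPM with DMSO. The groups overlapped (log2 change 0.31 ± 0.27). Levels at 18 h with TK were above those at 8 h with TK by a log2 change of 0.93 ± 0.27 (adjusted p 0.0858), and the difference of the TK change between the times was 0.67 (adjusted p 1).

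TP53INP1 was lower in every U2932 library than in any DOHH2 library. The share of genes with that order over all libraries was not computed. At 8 h in DMSO alone, 35.9% of genes had every DOHH2 library above every U2932 library. The TK log2 changes of TP53INP1 in U2932 were below 0. It had 9.57 and 19.5 CPM with TK, against 18.2, 22.7 and 17.5 CPM with DMSO at 8 h, where the groups overlapped (log2 change -0.41 ± 0.32). At 18 h it had 7.88, 7.3 and 8.02 CPM with TK, against 10.8 CPM in the DMSO library. All TK libraries were below it, as in 32.7% of genes with 1 DMSO library, and the log2 change of -0.48 ± 0.39 was not called (adjusted p 0.835). With TK it was lower at 18 h than at 8 h by a log2 change of -0.91 ± 0.32 (adjusted p 0.136). With DMSO it was also lower, at 10.8 CPM in the 1 library of 18 h and 19.4 ± 2.81 CPM at 8 h (n = 3). Time and compound cannot be told apart here either. The TK change at 18 h in DOHH2 exceeded that in U2932 by 1.45 ± 0.5 (95% interval 0.42 to 2.49; adjusted p 0.721). TP53INP1 overlaps NDUFAF6 on the opposite strand, whose log2 change in DOHH2 at 18 h was 0.008 ± 0.14.

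Together, 1 of the 6 genes was called with TK in DOHH2 at 18 h, and the log2 change was above 0 for all 6, at a median of 0.41, where all genes tested had a median of 0.016 and 52.9% of them were positive. In DOHH2 at 8 h 5 of 6 were positive (median 0.12, 52.4% of all genes positive). None of the 6 was positive in U2932 at 8 h (median -0.17, 49.7% of all genes positive) and 2 were at 18 h (median -0.063, 49.3%). The 2 times within a line have separate control libraries. The 6 genes were chosen with earlier results of these data known, so these shares are a description. MDM2, PPM1D and TP53INP1 were the genes whose 3 DOHH2 TK libraries of 18 h were above the other 8 DOHH2 libraries, which held for 1.97% of all genes. For TP53INP1 the margin was 62.4 against 61.6 CPM. MDM2 and TP53INP1 were there above all 17 other libraries of both lines, as were 0.886% of genes. How many of the 6 were called in DOHH2 at 18 h depended on the test. DESeq2 called 2 of the 6 (MDM2 and PPM1D) and 96 of the 12964 genes to which it gave an adjusted p. Voom of limma run with quality weights called 5 of the 6 and 1968 of 16478 genes, and gave replicate 1 of TK at 18 h the lowest weight of all libraries (0.137).

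The lines themselves differed in 5 of the 6 genes at 8 h in DMSO, against a background of 11177 genes (67.8%) called. MDM2, CCNG1 and TP53INP1 were higher in DOHH2, as 33% of all genes were. CCNG1 averaged 152 ± 14.9 CPM in DOHH2 and 85.9 ± 12.7 CPM in U2932 (log2 difference 0.82 ± 0.18, adjusted p 0.000327), and TP53INP1 38.3 ± 8.38 CPM in DOHH2 and 19.4 ± 2.81 CPM in U2932 (0.98 ± 0.28, adjusted p 0.00395), with n = 3 each. MDM4 and PPM1D were lower in DOHH2, as 34.9% of all genes were. MDM4 averaged 56.4 ± 5.56 CPM in DOHH2 and 88 ± 3.08 CPM in U2932 (-0.64 ± 0.16, adjusted p 0.00148), and PPM1D 22.8 ± 3.52 CPM in DOHH2 and 36.4 ± 1.91 CPM in U2932 (-0.67 ± 0.12, adjusted p 4.34e-05). RCHY1 was not called: it averaged 27 ± 1.56 CPM in DOHH2, and in U2932 33.3 ± 4.29 CPM (-0.3 ± 0.16, adjusted p 0.109). For all 6 genes these 8 h DMSO libraries did not overlap between the lines. The DOHH2 libraries were above for MDM2, CCNG1 and TP53INP1, as for 35.9% of all genes. They were below for MDM4, PPM1D and RCHY1, as for a further 37.9%. Most genes therefore separated the lines in 1 direction or the other, as the 6 did.

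Group means of MDM2, CCNG1 and TP53INP1 were higher in every DOHH2 group than in any U2932 group, while the lines mixed in the order of the other 3 genes. The share of all genes ordered by line over the 8 groups was not computed. At 8 h in DMSO alone, 35.9% of genes had every DOHH2 library above every U2932 library, so the order is not particular to these genes. For MDM2, DOHH2 with TK at 18 h came first, and the other 3 DOHH2 groups, at 187 to 210 CPM, overlapped from one to the next in the order and lay above the U2932 groups at 70.2 to 96.6 CPM. MDM4 was highest in U2932 with DMSO at 8 h (88 CPM), followed without overlap by U2932 with TK at 8 h (74.3 CPM), and from U2932 with DMSO at 18 h (61.6 CPM) down to DOHH2 with DMSO at 18 h (52.1 CPM) each group overlapped with the next, U2932 with TK at 18 h (53.4 CPM) among them. The 4 DOHH2 groups of CCNG1 overlapped with their neighbours in that order. PPM1D had its highest group mean in U2932 with DMSO at 8 h (36.4 CPM) and its lowest in DOHH2 with DMSO at 8 h, with DOHH2 with TK at 18 h (32.1 CPM) between U2932 groups. The RCHY1 group means spanned 25.4 to 33.3 CPM, and each neighbour in their order overlapped with the next.

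Among other genes of the pathway, 26 p53 target genes could be tested, and 2 of them rose with TK in DOHH2 at 18 h (0.0668% of all genes did), none fell and 24 were not called. The list was chosen with earlier results of these data known, so its counts are a description and carry no test. SESN1, a sestrin that restrains growth signalling, averaged 27.8 ± 0.964 CPM with TK (n = 3) and 12.4 ± 0.338 CPM with DMSO (n = 2), and its log2 change was 1.16 ± 0.15 (adjusted p 0.000641). EDA2R, a receptor of the tumour necrosis factor family, averaged 22.3 ± 2.16 CPM with TK and 10.6 ± 0.0744 CPM with DMSO (1.08 ± 0.19, adjusted p 0.0403). The log2 change was above 0 for all 26, and the list's median was 0.66, where that of all genes was 0.016 and 52.9% of genes were positive. In U2932 at 18 h none was called, 16 of 26 were positive (49.3% of all genes were) and the median was 0.071. Between 18 h and 8 h with TK in DOHH2, 6 of the 26 rose and none fell, where 0.68% of all genes were called higher. With DMSO, 1 of the 26 fell between those times and none rose, where 0.631% of all genes were called in either direction. There 6 of the 26 were positive (49.9% of all genes were), with a median of -0.21. How far the lower DMSO levels of 18 h enter the median of 0.66 was not tested.

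Of the 3 other lists, none had a gene called in DOHH2 at 18 h. All 11 kinases and acetyltransferases that act on p53 were uncalled (6 positive, median 0.014). The smallest p-values there were those of the acetyltransferase KAT8 (log2 change -0.24 ± 0.12), the DNA-damage kinase PRKDC (-0.19 ± 0.16) and ATM (0.34 ± 0.28). None of 20 other ubiquitin ligases, deubiquitinases and MDM2 partners was called (14 positive, median 0.024). The deubiquitinase USP2 was nearly silent, at 0.144 ± 0.0437 CPM with TK and 0.0578 ± 0.0478 CPM with DMSO, while RPL26, a ribosomal protein that binds MDM2, had a log2 change of -0.35 ± 0.21 and the ligase MKRN1 of 0.15 ± 0.11. None of 8 paralogs and partners of the 6 genes was called (6 positive, median 0.068). TP53INP2 had a log2 change of 0.62 ± 0.23, CCNG2 of 0.42 ± 0.17 and PPM1A of 0.12 ± 0.12. CCNG2, the relative of cyclin G1, rose between 8 h and 18 h of TK in DOHH2, at 28.5 ± 5.07 CPM at 18 h and 17.9 ± 3.29 CPM at 8 h (0.67 ± 0.15, adjusted p 0.0333). With DMSO, CCNG2 had 21.4 ± 0.959 CPM at 18 h and 13.8 ± 1.57 CPM at 8 h (0.63 ± 0.17, adjusted p 0.113), and the TK change differed between the times by 0.039 ± 0.23 (adjusted p 1).

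**Figure D4:**
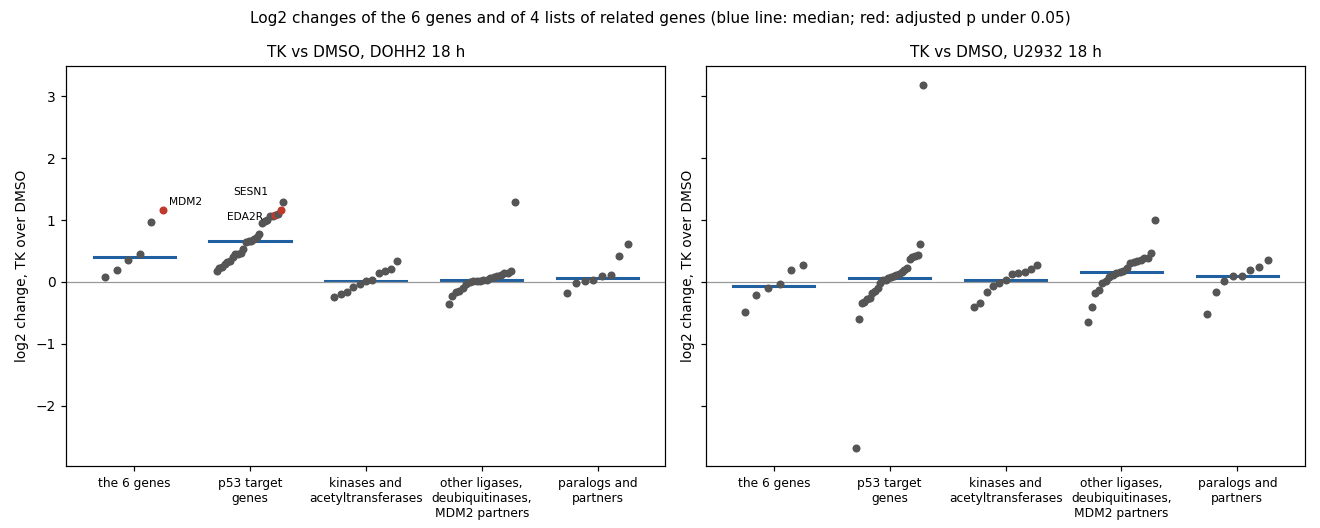
Fitted log2 change, TK over DMSO at 18 h, of the 6 genes and of 4 lists of related genes in DOHH2 (left) and U2932 (right). Points are genes in ascending order, blue lines the median of each list and red points genes with an adjusted p under 0.05 (MDM2, SESN1 and EDA2R in DOHH2, none in U2932). The 2 farthest points in U2932 are PLK2 and EDA2R, with group means of at most 0.134 CPM, whose fitted values depend on the prior count.

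Across the 20 libraries, after subtraction of each line's mean, MDM2 levels correlated with those of PPM1D (Pearson r = 0.85), TP53INP1 (0.78), CCNG1 (0.6), MDM4 (0.42) and RCHY1 (0.27). Within DOHH2 (n = 11) the values were 0.9, 0.81, 0.63, 0.25 and 0.28 for the genes in that order. Within U2932 (n = 9) they were 0.65, 0.87, 0.46, 0.91 and 0.25, so MDM4 came first there. The libraries share their groups, so these values describe the pattern and carry no test. The 3 of 8812 other genes with the pattern most like that of MDM2 were PNRC1 (r = 0.92), SESN1 and UBE2H (0.89 each). For PPM1D they were PNRC1 (0.9), KCNQ1OT1 and RRM2B (0.83 each), so PNRC1 came first for both. TP53INP1 was most like RAB30 and FAM214A (0.94 each) and PTP4A1 (0.93), and MDM4 most like FTX (0.93), ZNF493 and SLC30A7 (0.92 each). CCNG1 was most like USPL1 (0.9), MTERF1 and PIAS2 (0.88 each), and RCHY1 most like GTPBP10, OTUD6B-AS1 and GCFC2 (0.89 each).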

How the data were processed

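Polyadenylated RNA of DOHH2 and U2932 cells was sequenced in 20 libraries. STAR, HTSeq, edgeR and the build GRCh38.p10 are named in the submitters' processing notes, with no version of a tool and no role stated for any. Per the deposited files, the authors' values are whole-number read counts for 58288 genes, neither filtered nor normalised as the files show, with 5 summary counts that were left out of library sizes (32.7 to 62.7% of all counts). Neither the strand setting nor the annotation is given in the sources used here. The precision is set by 30363255 to 52275430 counts in genes per library.

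Libraries were grouped by the labels. A single model of all 20 was fitted with edgeR 4.0.16 under R 4.3.3 (TMM, robust quasi-likelihood fit, 1 coefficient for each of 8 groups, no replicate block). Genes were kept with at least 3 libraries at 0.288 CPM, the CPM of 10 counts in the median library: 16478 of 34160 with any count. P-values were Benjamini-Hochberg adjusted over these genes, with a threshold of 0.05. SEs and 95% intervals came from the test statistic. CPM per kb used the exon union of GENCODE v29. The genes named are the 6 members, from each list up to 5 called in DOHH2 at 18 h or else the 3 with the smallest p, and the 3 genes most correlated with each member on log2 CPM (prior count 2, mean of at least 3). CCNG2 between times, PLK2, and the members of comparisons named singly were chosen after their values were seen. The members and lists were chosen with earlier results of these data known. Alternatives tried were DESeq2 1.42.0, scaling by RLE, a replicate block, libraries of 1 line, a filter at 50 counts or none, voom with quality weights of limma 3.58.1, DMSO of both times as control, and libraries left out. The fit was tested on simulated data. Some genes of the pathway are not reported here.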

Additional observations from a re-analysis of the deposited data

Results flagged for a closer look

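MDM2 had log2 changes of opposite sign with TK at 8 h, neither of them called (adjusted p 1 in both lines): every TK library was above every DMSO library in DOHH2 (log2 change 0.17) and below every DMSO library in U2932 (-0.3). The difference of 0.47 was not tested. TP53INP1 did so at 18 h, also uncalled in both lines (adjusted p 0.339 in DOHH2 and 0.835 in U2932), with a log2 change of 0.97 in DOHH2 and -0.48 in U2932, where 1 DMSO library was available. The difference of 1.45 was tested in edgeR's fit and was not called (adjusted p 0.721). No group held 4 or more libraries, so single libraries were not tested as outliers within their groups.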

How the results depend on the processing

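MDM2 with TK in DOHH2 at 18 h had a log2 change of 1.09 to 1.26 over 14 alternatives and was called in 13. The number of the 6 genes called there was 1, against 2 with no filter or with DESeq2, 5 with voom, 3 without both replicate 1 TK libraries of DOHH2, 3 with DMSO of both times as control, and 0 to 1 when single libraries were left out (0 without DMSO replicate 3). In U2932 at 18 h it was 0, against 2 with DMSO of both times, which takes in the time difference. Between 18 h and 8 h with TK it was 1 in DOHH2, against 2 with no filter or the replicate block, 3 with DESeq2, 5 with voom and 1 to 3 with single libraries left out (3 without TK 8 h replicate 3). Without TK 8 h replicate 3, 1267 of 16446 genes were called in all. In U2932 the number of the 6 was 0, against 1 with no filter or voom, 2 with 1 line only and 2 without both replicate 1 libraries. Over all genes, 1476 of 15182 were called there with 1 line only and 1647 of 16497 without both replicate 1 libraries, against 36 of 16478. For the difference between times the number of the 6 was 0, against 1 with no filter, DESeq2 or voom. For the difference between lines it was 0, against 2 with no filter or voom, 1 with DESeq2 or without both replicate 1 libraries, and 0 to 1 with single libraries left out. The cause of these moves was not tested.

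Signs turned in uncalled values when libraries were left out or with another setting (ranges are over single libraries left out): MDM4 in DOHH2 at 8 h to -0.05 without TK replicate 3 (range to 0.2), and RCHY1 in DOHH2 at 18 h to -0.077 without TK replicate 2 and -0.033 without DMSO replicate 3 (range to 0.28). In U2932 at 8 h TP53INP1 turned to 0.0073 without TK replicate 1 (range from -1.02), and CCNG1 to 0.033 and RCHY1 to 0.0098 without DMSO replicate 1 (both from -0.18). In U2932 at 18 h MDM2 turned to 0.0066 and 0.014 without TK replicates 1 and 3 (range from -0.11) and to 0.0054 with the replicate block, and with DMSO of both times it was -0.37 and CCNG1 turned to -0.012. MDM2 between the times turned to 0.088 with TK in U2932 without TK 8 h replicate 2 (range from -0.38), and to -0.036 with DMSO in DOHH2 without 18 h replicate 1 (range to 0.14).

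The count over all genes in DOHH2 at 18 h was 12, against 170 with no filter, 96 with DESeq2, 1968 with voom (789 higher), 75 without both replicate 1 libraries, 62 with DMSO of both times, 5 with 1 line only and 1 to 18 with single libraries left out. With no filter, DESeq2 and voom in turn it was 102, 64 and 219 against 3 in U2932 at 18 h (1654 with DMSO of both times), 861, 895 and 4098 against 258 between TK times in DOHH2, 739, 922 and 1594 against 36 in U2932, 445, 273 and 1849 against 104 between DMSO times, 58, 8 and 7 against 2 for the time difference, and 73, 24 and 106 against 4 for the line difference. At 8 h no filter gave 32 genes in DOHH2 and 9 in U2932, against 0. Same-numbered libraries deviated together with r of -0.16 to 0.66 over 8818 genes. Libraries of unlike number were not correlated, so this range cannot decide whether the numbers pair the libraries. The main fit treated them as unpaired, and the replicate block changed no other count of the 6 genes. The 6 genes had 238 or more counts in each library. U2932 at 18 h had 1 DMSO library.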
